A study of Mus musculus with 6 samples.

Results

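Genes of the hypoxia-inducible factor (HIF) pathway, 34 of the 55421 genes in the table, were followed in mouse macrophages given medium conditioned by tumour cells. The members were a fixed list of symbols, chosen with earlier results of these data known. They were the HIF subunits, the enzymes and partners that control them, and genes known as HIF targets outside glycolysis. Each was found by its Ensembl identifier through its GENCODE symbol. All 34 were among the 13853 genes that passed a filter on low counts, Adm only through the conditioned-medium wells.

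The series held 6 wells of primary macrophages grown from bone marrow, all of wild-type genotype and all in RPMI-1640 medium with serum and 20 ng/mL of macrophage colony-stimulating factor (M-CSF). The 3 untreated wells stayed in that medium. In the other 3 wells it was mixed with the same volume of medium in which LL-2, a mouse line of Lewis lung carcinoma, had grown, so that 50% was conditioned medium, and all wells were lysed 24 h later. No label ties the wells to separate animals. The p-values therefore reflect only well-to-well spread, which may be technical. Tumour-cell products, conditioning as such and a smaller share of fresh medium cannot be told apart in these groups. The same holds for less M-CSF, if the mixture was not kept at the 20 ng/mL listed for all wells. No oxygen level is given in the labels.

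HIF is a pair of proteins, an oxygen-labile alpha subunit and the stable beta subunit ARNT. With oxygen, prolyl hydroxylases of the EGLN family mark the alpha subunit, and the von Hippel-Lindau protein VHL then directs its destruction. Without this mark the pair binds DNA at a short core motif and switches on genes for glycolysis, mitophagy, blood vessel growth and collagen modification. In macrophages the alpha subunit also accumulates with oxygen present, for instance after bacterial stimuli, partly because Hif1a transcription rises. Messenger RNA was measured here, and the proteins were not.

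Library totals were 24179548 to 30040682 counts, with every conditioned-medium library above every untreated one, and mitochondrial transcripts took 1.15% to 1.18% of counts in untreated and 1.26% to 1.27% in treated wells. The part of both in the results was not tested. For a gene without any count, 3 counts is the limit set by counting error, equal to 0.0999 to 0.124 CPM (counts after every library is scaled to a common total). The summed level of 8 macrophage markers was 51040 to 60325 CPM in untreated wells and 57256 to 61926 CPM with conditioned medium, most of it Lyz2. Of these markers Csf1r, Itgam and Mertk rose, Cd68, Adgre1 and Fcgr1 fell, and Lyz2 and Cd14 did not pass. Neutrophil markers summed to 402 to 597 and 484 to 563 CPM. Of these 8, Camp (log2 -0.90, adjusted p = 0.00825) and Ltf (log2 -0.69, adjusted p = 0.019) fell and 6 did not pass. Mast cell and basophil markers summed to 12.2 to 14.2 and 3.99 to 7.91 CPM, with all 4 tested called lower. Fibroblast and endothelial markers summed to 28.0 to 72.8 and 43.2 to 111 CPM. The endothelial markers within that sum rose: Cdh5 from 1.09, 1.40 and 0.521 CPM to 2.95, 4.86 and 2.68 CPM (adjusted p = 0.0046) and Pecam1 from 12.0, 13.2 and 7.22 CPM to 25.8, 31.3 and 13.6 CPM (adjusted p = 0.0194), and 4 fibroblast markers did not pass. T cell markers summed to 105 to 163 and 110 to 201 CPM, nearly all from Cd4, and B cell markers to 14.2 to 17.3 and 10.9 to 16.7 CPM. Of the B cell markers Ms4a1 fell (log2 -0.89, adjusted p = 0.0219) and 4 did not pass. Epithelial markers reached at most 1.41 CPM in any well, and the erythroid genes Hbb-bs and Hbb-bt had 0 counts throughout. The part of these other cells in the results was not tested. In bulk RNA, fewer cells of a type and less RNA per cell cannot be told apart.

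With conditioned medium, 22 members rose and 4 fell at an adjusted p under 0.05 (edgeR's quasi-likelihood test, adjusted over all tested genes), and 8 passed in neither direction. Of all tested genes 27.9% passed, 12.6% higher and 15.2% lower, against 64.7% higher and 11.8% lower among the members. The members were chosen with earlier results of these data known, so such contrasts with all genes describe the list and are no independent test. A test for changes beyond 1.5-fold (glmTreat) called 7 members higher and 2 lower, where 3.49% of all genes were called, 1.24% higher and 2.25% lower. The 7 were Hif1a, Egln3, Bnip3, Pdk1, Ak4, Ddit4 and Adm, and the 2 were Bhlhe40 and Ndrg1. The 2 groups of wells did not overlap for 28 members, 24 higher and 4 lower, against 42.8% of all tested genes, 21.2% higher and 21.6% lower. The median log2 fold change was 0.36 over the members and 0.01 over all tested genes, and members ranged from -1.34 for Bhlhe40 to 2.56 for Adm. Adm was below the filter's level in all untreated wells, so it could enter only by being higher with conditioned medium. Among the other 33 members 21 rose, 4 fell, 6 passed the 1.5-fold test higher and 2 lower, and the median was 0.36. All these calls leave out the pairing of same-numbered wells described under the processing. With the replicate number as a block, 23 members rose and 5 fell, beside 2355 and 2668 of all tested genes. Levels are given as CPM scaled by TMM, a correction for differences in library composition, and changes as conditioned medium against untreated.

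**Figure D1:**
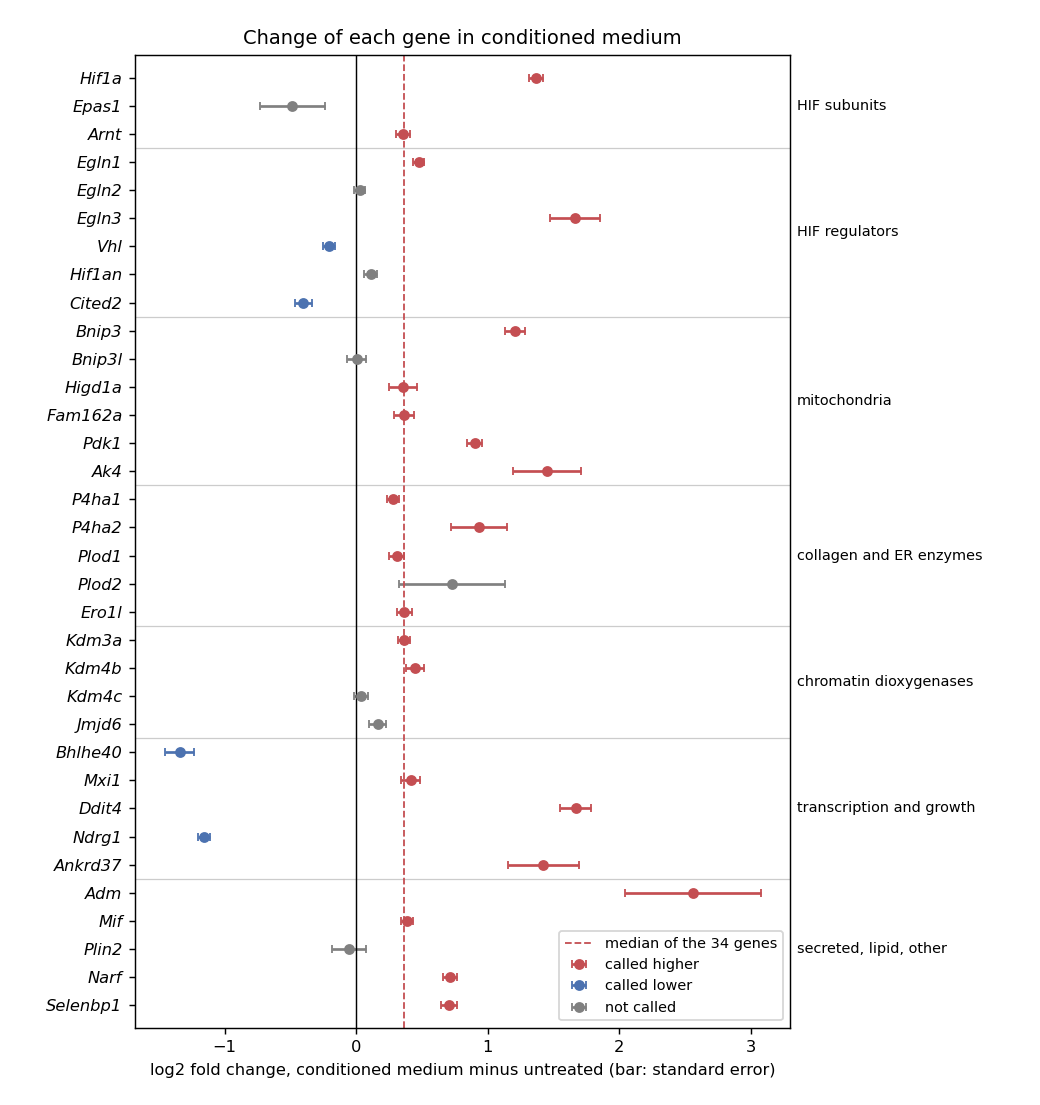
Log2 fold change of each member (x axis, conditioned medium minus untreated), grouped by role (y axis), with bars for the standard error and the colour for the call at an adjusted p of 0.05. Of the 34 members, 22 lie to the right as higher and 4 to the left as lower, from Bhlhe40 at -1.34 to Adm at 2.56. The 22 include Adm, which could enter the test only by being higher. Among the other 33 members 21 are higher and the largest log2 fold change is 1.67.

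The promoters of the 4 members with the largest rises among those above a mean of 5 CPM are shown first, because the HIF core motif can be read in them. The 300-base windows come from RefSeq on GRCm38.p6, run from 250 bases before the transcript start to 50 bases from it onward, and are written 5′ to 3′ on the gene's strand. Capitals mark ACGTG or GCGTG on either strand, so that CACGT or CACGC is a match on the reverse strand and CACGTG is a match on both. The window of Ddit4 is chr10:59951721-59952020 (minus strand), that of Hif1a chr12:73907617-73907916 (plus), that of Bnip3 chr7:138909457-138909756 (minus) and that of Pdk1 chr2:71872974-71873273 (plus).
Ddit4: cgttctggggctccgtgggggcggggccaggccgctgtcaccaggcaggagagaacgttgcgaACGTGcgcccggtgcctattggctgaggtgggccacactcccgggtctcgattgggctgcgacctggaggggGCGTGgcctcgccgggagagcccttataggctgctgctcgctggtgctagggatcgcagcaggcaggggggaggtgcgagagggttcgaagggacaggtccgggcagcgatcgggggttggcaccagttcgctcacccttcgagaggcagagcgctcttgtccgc
Hif1a: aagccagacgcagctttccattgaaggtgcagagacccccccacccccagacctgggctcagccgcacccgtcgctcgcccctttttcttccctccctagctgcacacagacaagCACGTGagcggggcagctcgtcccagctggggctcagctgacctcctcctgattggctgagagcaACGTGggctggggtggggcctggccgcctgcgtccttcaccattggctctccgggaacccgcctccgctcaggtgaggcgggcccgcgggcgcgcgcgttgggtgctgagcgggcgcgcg
Bnip3: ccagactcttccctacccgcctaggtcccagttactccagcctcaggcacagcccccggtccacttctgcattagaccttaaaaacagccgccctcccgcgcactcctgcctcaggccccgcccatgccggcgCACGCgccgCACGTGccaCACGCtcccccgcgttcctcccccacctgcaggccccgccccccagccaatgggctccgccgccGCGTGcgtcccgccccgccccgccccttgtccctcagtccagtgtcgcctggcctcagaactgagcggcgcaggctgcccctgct
Pdk1: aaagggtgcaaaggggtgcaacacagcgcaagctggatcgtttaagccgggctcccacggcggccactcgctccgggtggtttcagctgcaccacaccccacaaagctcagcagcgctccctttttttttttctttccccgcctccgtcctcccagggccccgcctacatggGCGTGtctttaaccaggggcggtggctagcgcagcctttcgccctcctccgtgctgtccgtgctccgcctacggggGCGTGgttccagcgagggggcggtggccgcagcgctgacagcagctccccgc

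Hif1a, which encodes the HIF-1 alpha subunit, rose 2.58-fold. It is annotated at chr12:73901375-73947530 on GRCm38. It stood at 97.5, 100.04 and 106 CPM in the untreated wells and at 253, 256 and 275 CPM with conditioned medium, so the lowest treated well was above the highest untreated well by far more than the spread within either group. The means were 101 ± 4.45 and 261 ± 12.3 CPM (SD, n = 3), which is 1.37 on the log2 scale (SE 0.052, adjusted p = 4.57e-07). Arnt, the shared beta subunit, rose 1.28-fold, from 67.1, 68.8 and 62.8 CPM to 89.7, 81.3 and 83.8 CPM (adjusted p = 0.00107).

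Epas1 encodes the HIF-2 alpha subunit, which has its own set of targets in macrophages. It stood at 16.4, 13.2 and 8.02 CPM in untreated wells and at 10.8, 9.23 and 6.78 CPM with conditioned medium, and the groups overlapped. The log2 difference was -0.49 (SE 0.245, adjusted p = 0.178). In both groups the well numbered 3 was the lowest. With the replicate number as a block the difference was -0.47 (adjusted p = 0.00107), without untreated well 3 it was -0.73 (adjusted p = 0.0185), without both wells numbered 3 it was -0.56 (adjusted p = 0.00697), without the low-count filter it was -0.47 (adjusted p = 0.0265), and without untreated well 1 it was -0.25 (adjusted p = 0.523). The remaining family genes were near the detection floor: Arnt2 had 14 counts over the untreated and 16 over the treated libraries, Hif3a had 11 and 30, and neither was tested.

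The deposited exon length belongs to a gene and not to a transcript, so levels per kilobase compare genes only roughly. Set against this length, Hif1a moved up among the members. In CPM per kilobase of exon it went from 17.2 to 44.3, from rank 8 to rank 4 of 34. Arnt went from 8.27 to 10.6 and Epas1 from 2.24 to 1.60 on the same scale. The ratio of Hif1a to Epas1 per kilobase was 5.64, 7.18 and 12.5 in the untreated wells and 22.2, 26.3 and 38.5 with conditioned medium. The Hif1a to Arnt ratio was 1.97, 1.97 and 2.29 and then 3.83, 4.27 and 4.47. For both ratios all treated wells were above all untreated wells, and the Hif1a to Epas1 ratio was highest in the well numbered 3 of each group.

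**Figure D2:**
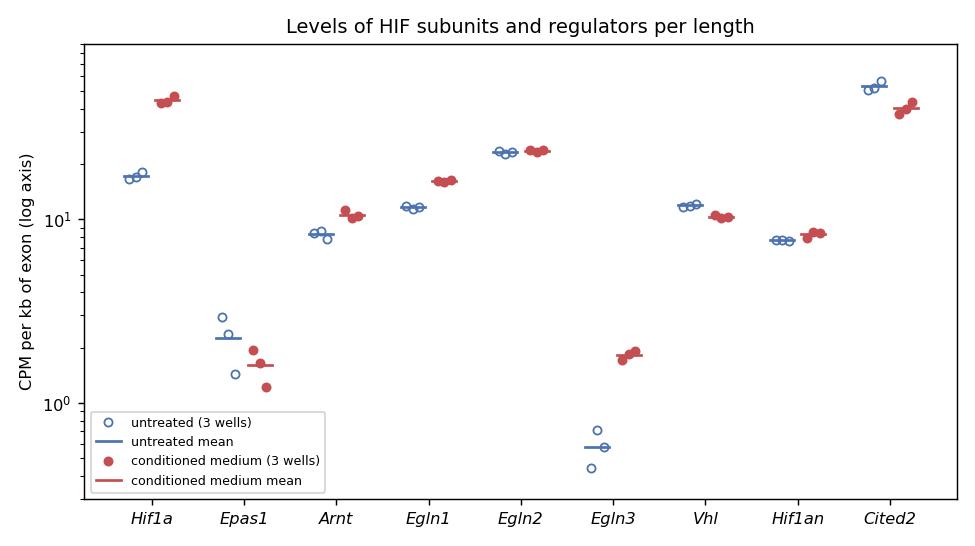
Levels of the HIF subunits and regulators (x axis) in CPM per kilobase of exon (y axis, log scale), with 1 point per well and a line for the mean of each group. Hif1a moves from 17.2 to 44.3 and Egln3 from 0.575 to 1.83 on average, while the Egln2 groups overlap and the Epas1 groups overlap.

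Among the regulators, members that oppose HIF moved both ways. Egln3 and Egln1, the prolyl hydroxylase genes PHD3 and PHD2, rose, and both are themselves known HIF targets. Egln3 (chr12:54178981-54203860) rose 3.17-fold, from 1.17, 1.90 and 1.52 CPM to 4.56, 4.89 and 5.13 CPM (log2 1.66, SE 0.192, adjusted p = 0.000231). Egln1 (chr8:124908587-124949324) rose 1.39-fold, from 42.4, 41.1 and 42.0 CPM to 57.8, 57.7 and 58.7 CPM (adjusted p = 4.96e-05). Egln2, the gene for PHD1, was at 65.8, 63.7 and 65.1 CPM and then at 66.6, 64.8 and 66.7 CPM, with overlapping groups and a log2 difference of 0.03 (SE 0.041, adjusted p = 0.686).

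The makeup of the hydroxylase family thereby shifted. Of the summed EGLN level per kilobase, Egln2 held 65.8%, 65.2% and 65.5% in untreated wells and 57.2%, 56.4% and 56.6% with conditioned medium. Egln1 went from 33.0%, 32.8% and 32.9% to 38.7%, 39.1% and 38.8%. Egln3 went from 1.23%, 2.05% and 1.61% to 4.12%, 4.48% and 4.58%. Egln3 thus had the largest fold rise of the 3 and stayed the smallest in level in all 6 wells.

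Vhl, the substrate receptor of the ubiquitin ligase that removes hydroxylated HIF alpha, fell 1.16-fold, from 35.1, 35.5 and 36.5 CPM to 31.5, 30.5 and 30.7 CPM (log2 -0.21, SE 0.048, adjusted p = 0.0101). Cited2, which competes with HIF for the coactivators p300 and CBP and is itself induced by HIF, fell 1.32-fold, from 124, 127 and 139 CPM to 91.6, 97.4 and 107 CPM (log2 -0.40, SE 0.067, adjusted p = 0.00184). Neither fall passed the test for 1.5-fold. Hif1an encodes the asparaginyl hydroxylase FIH, which blocks coactivator binding. It was at 50.6, 50.8 and 50.6 CPM and then at 52.0, 56.5 and 55.4 CPM, without overlap, and did not pass (log2 0.11, SE 0.047, adjusted p = 0.124). It passed when libraries were scaled by the total count alone (log2 0.17, adjusted p = 0.0247).

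The mitochondrial members included a receptor pair of which 1 gene rose. Bnip3, a mitophagy receptor of the outer membrane (chr7:138890836-138909519), rose 2.31-fold, from 11.8, 11.8 and 13.6 CPM to 28.1, 27.9 and 29.8 CPM (log2 1.21, SE 0.074, adjusted p = 5.78e-06). Bnip3l encodes its relative NIX. It was at 144, 146 and 127 CPM and then at 142, 149.7 and 126 CPM, with a log2 difference of 0.00 (SE 0.075, adjusted p = 0.982), and its sign changed under 5 alternative settings. Bnip3l remained the more abundant of the pair per kilobase, by 7.21, 7.30 and 5.47 times in untreated wells and by 2.97, 3.15 and 2.49 times with conditioned medium. A named Bnip3l pseudogene held 119 counts, and reads could be split between them.

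Pdk1, the kinase that shuts off pyruvate dehydrogenase and so keeps pyruvate out of mitochondria, rose 1.86-fold (chr2:71873224-71903858). It went from 30.5, 32.3 and 30.4 CPM to 54.5, 57.4 and 61.8 CPM (log2 0.90, SE 0.059, adjusted p = 7.88e-06). Ak4, an adenylate kinase of the mitochondrial matrix, rose 2.74-fold from a low level, 1.51, 0.826 and 1.00 CPM, to 2.92, 2.59 and 3.61 CPM (log2 1.45, SE 0.257, adjusted p = 0.0026). Both rises also passed the test for 1.5-fold, as did that of Bnip3.

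Fam162a, a mitochondrial protein linked to hypoxic cell death, rose 1.29-fold, from 11.3, 10.6 and 11.5 CPM to 14.5, 14.7 and 13.7 CPM (adjusted p = 0.0062). Of its exon bases 19.8% overlap Wdr5b on the opposite strand, and the counting strand is unknown. Higd1a, an inner-membrane protein that helps cells survive low oxygen, rose 1.28-fold, from 16.4, 13.6 and 18.1 CPM to 22.4, 19.9 and 19.3 CPM (log2 0.36, SE 0.106, adjusted p = 0.0341). This was the weakest call among the members. It was lost without untreated well 1 (adjusted p = 0.0763), untreated well 2 (0.106), conditioned-medium well 1 (0.128) or conditioned-medium well 2 (0.0659).

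**Figure D3:**
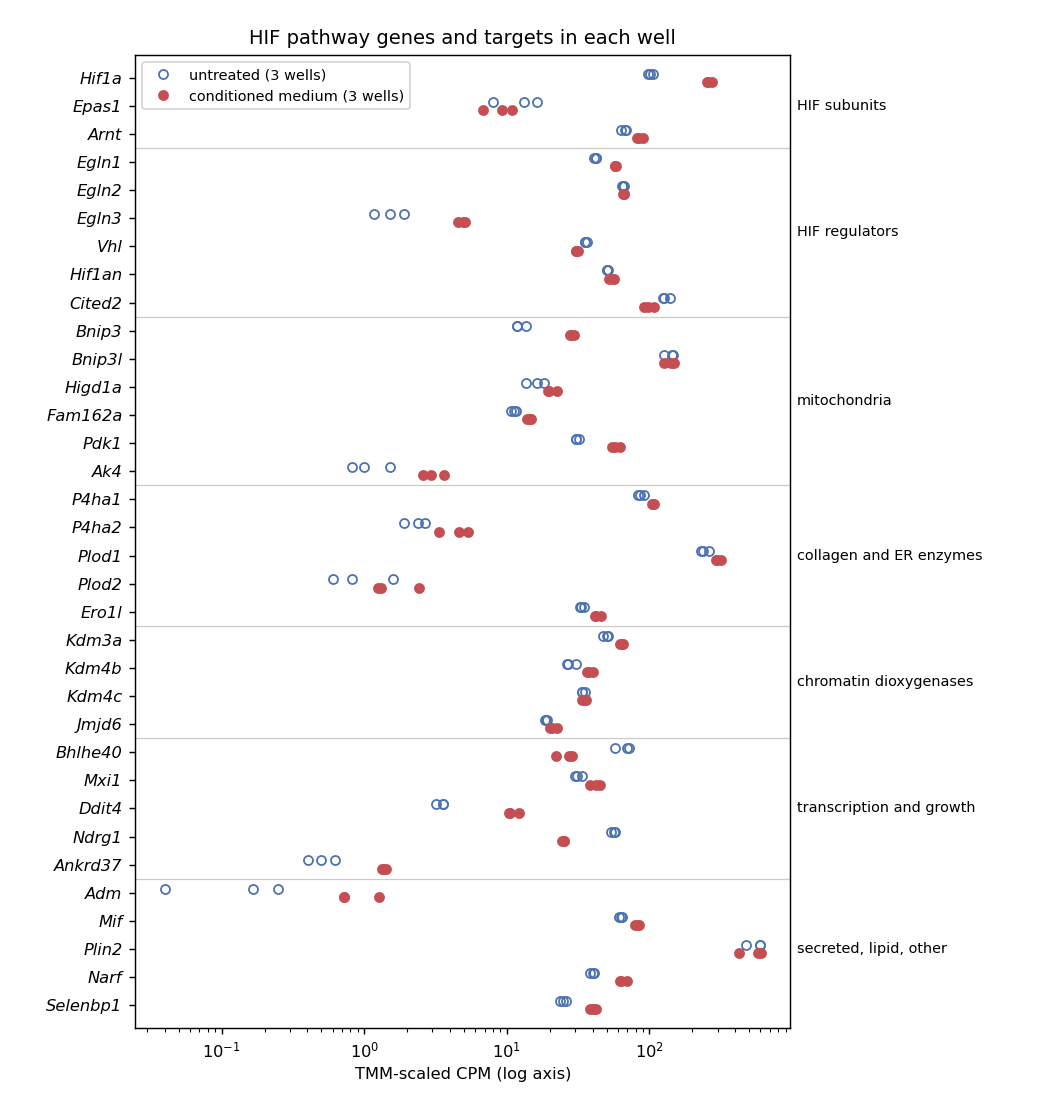
TMM-scaled CPM of each member (rows, by role) in each well on a log axis, open circles for the 3 untreated wells and filled circles for the 3 conditioned-medium wells. The filled circles lie wholly to the right for 24 members and wholly to the left for 4, and Plin2 and Hif1a are among the members furthest to the right. The 24 include Adm, which could enter the test only by being higher.

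Genes of collagen-modifying and disulfide-forming enzymes of the endoplasmic reticulum rose modestly, 4 of 5 members, and none beyond 1.5-fold by its test. P4ha1 and P4ha2 encode the catalytic subunits of collagen prolyl 4-hydroxylase. P4ha2 rose 1.92-fold from a low level, 2.38, 1.90 and 2.65 CPM, to 5.31, 3.35 and 4.61 CPM (log2 0.94, SE 0.213, adjusted p = 0.00982). The abundant P4ha1 rose 1.21-fold, from 83.5, 86.0 and 91.7 CPM to 105, 107 and 104 CPM (adjusted p = 0.00193). Per kilobase P4ha1 exceeded P4ha2 by 53.2, 68.6 and 52.6 times in untreated wells and by at most 48.6 times with conditioned medium.

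Plod1, a collagen lysyl hydroxylase, rose 1.24-fold, from 231, 239 and 263 CPM to 295, 297 and 315 CPM (adjusted p = 0.00332). Ero1l, the oxidase that drives disulfide bond formation, rose 1.29-fold, from 33.1, 32.8 and 34.9 CPM to 42.2, 41.6 and 46.0 CPM (adjusted p = 0.0012). Plod2, the lysyl hydroxylase of collagen telopeptides, was near the bottom of the range. It was at 1.59, 0.826 and 0.601 CPM and then at 2.43, 1.31 and 1.24 CPM, with overlapping groups and a log2 difference of 0.73 (SE 0.402, adjusted p = 0.22). In both groups well 1 was the highest for Plod2, as it was for the summed fibroblast and endothelial markers given above, whose part in its level was not tested. The replicate block gave 0.74 (adjusted p = 0.0395), and leaving out conditioned-medium well 1 gave 0.34 (adjusted p = 0.63).

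Of the 4 histone demethylases and related chromatin dioxygenases, 2 rose. Kdm3a, a histone lysine demethylase that is a well-known HIF target, rose 1.28-fold, from 51.2, 50.6 and 47.4 CPM to 63.9, 62.4 and 65.4 CPM (adjusted p = 0.0005). Kdm4b rose 1.36-fold, from 26.4, 26.9 and 30.4 CPM to 36.4, 37.5 and 40.2 CPM (adjusted p = 0.00109). Its relative Kdm4c was at 33.5, 33.4 and 35.5 CPM and then at 33.8, 35.5 and 35.6 CPM, with overlapping groups (log2 0.03, SE 0.051, adjusted p = 0.666).

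Jmjd6, a jumonji-family lysyl hydroxylase, was at 18.4, 18.9 and 19.2 CPM in untreated wells and at 20.1, 20.8 and 22.4 CPM with conditioned medium. The groups did not overlap, and the log2 difference of 0.16 (SE 0.065) did not pass (adjusted p = 0.0897). It passed when only total counts were used for scaling (log2 0.22, adjusted p = 0.0269). A stretch of 3.66% of its exon bases overlaps Mettl23 on the opposite strand.

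Regulators of transcription and growth moved in both directions, 3 higher and 2 lower of 5. Ddit4, which encodes the stress protein REDD1, an inhibitor of the growth kinase mTOR (chr10:59949669-59951834), rose 3.18-fold. It went from 3.60, 3.59 and 3.21 CPM to 12.2, 10.6 and 10.3 CPM (log2 1.67, SE 0.117, adjusted p = 1.26e-05). Mxi1, an antagonist of MYC, rose 1.33-fold, from 33.8, 30.02 and 30.8 CPM to 42.3, 45.2 and 38.4 CPM (adjusted p = 0.00239). Ankrd37, a small ankyrin-repeat protein gene widely used as a hypoxia marker, rose 2.69-fold, from 0.627, 0.495 and 0.401 CPM to 1.41, 1.35 and 1.34 CPM (log2 1.42, SE 0.271, adjusted p = 0.00391). Ankrd37 did not pass the test for 1.5-fold (glmTreat, adjusted p = 0.06). Of its exon bases 22.7% overlap Lrp2bp and 3.70% the far more abundant Ufsp2, both on the opposite strand, so some of its 160 counts may belong to them.

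Bhlhe40 and Ndrg1 fell beyond 1.5-fold, although both are usually listed as HIF-induced. Bhlhe40, a basic helix-loop-helix repressor also known for its part in macrophage and T cell cytokine control (chr6:108660629-108666925), fell 2.54-fold. It went from 71.4, 69.7 and 57.1 CPM to 27.3, 28.7 and 22.0 CPM (log2 -1.34, SE 0.111, adjusted p = 3.13e-05). Ndrg1, a stress- and differentiation-responsive gene (chr15:66929318-66969640), fell 2.23-fold, from 53.4, 57.1 and 56.4 CPM to 24.4, 25.3 and 25.0 CPM (log2 -1.16, SE 0.049, adjusted p = 7.71e-07). The lowest untreated well was above the highest treated well for both. Per kilobase of exon, Bhlhe40 moved from rank 9 to rank 25 of the 34 members and Ndrg1 from rank 14 to rank 27.

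Of the 5 secreted, lipid and other members, 4 were called higher, Adm among them. Narf, a nuclear protein that binds prelamin A, rose 1.64-fold, from 38.1, 40.8 and 40.4 CPM to 62.4, 63.6 and 69.3 CPM (log2 0.71, SE 0.055, adjusted p = 2.39e-05). Selenbp1, a selenium-binding methanethiol oxidase, rose 1.63-fold, from 24.6, 23.5 and 26.2 CPM to 40.4, 38.5 and 42.3 CPM (adjusted p = 3.99e-05). Its near-identical copy Selenbp2 was called higher too, at 0.544, 0.495 and 0.401 CPM and then 1.80, 1.48 and 1.20 CPM (adjusted p = 0.00254), and reads could be split between the copies. Mif, the cytokine macrophage migration inhibitory factor, rose 1.31-fold, from 63.0, 61.4 and 64.6 CPM to 79.4, 83.0 and 84.4 CPM (adjusted p = 0.000231).

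Adm, the gene of the vasodilator peptide adrenomedullin, had the lowest untreated level per kilobase of the members. It rested on 11 counts over the untreated libraries and 82 over the treated ones. It stood at 0.167, 0.248 and 0.0401 CPM, near the limit that 3 counts set, and then at 1.28, 0.722 and 0.723 CPM, a log2 difference of 2.56 (SE 0.517). Since it entered the test only through the treated wells, its p-value is not given. Leaving out single libraries moved the difference between 2.11 and 3.09. The endothelial markers Cdh5 and Pecam1 were higher in the same wells, and their part in the Adm level was not tested. Plin2, the lipid droplet coat protein perilipin 2, was the most abundant member per kilobase in both groups. It was at 592, 599.9 and 473 CPM and then at 577, 601 and 426 CPM, with overlapping groups and the lowest value in the well numbered 3 of each (log2 -0.05, SE 0.130, adjusted p = 0.807). The sign of the Plin2 difference changed when libraries were scaled by the total count alone and when untreated well 2 or conditioned-medium well 3 was left out.

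Other genes of the pathway were read from lists of known components. Of 20 tested genes of the HIF machinery outside the members (cofactors, ubiquitin ligase subunits, chaperones), 2 rose and 3 fell, and the median log2 fold change was -0.07. These shares, 10% higher and 15% lower, were close to the 12.6% and 15.2% of all tested genes. The chaperone genes of HSP90, which stabilises HIF alpha, fell: Hsp90ab1 from 902 ± 31.4 to 728 ± 27.6 CPM (SD, n = 3; log2 -0.31, adjusted p = 0.00122) and Hsp90aa1 from 147 to 121 CPM (log2 -0.29, adjusted p = 0.00932). Limd1, a scaffold that brings EGLN and VHL together, fell from 101 to 83.5 CPM (log2 -0.28, adjusted p = 0.000707). The deubiquitinase genes Usp20 (log2 0.23, adjusted p = 0.0339) and Usp33 (0.19, adjusted p = 0.0321) were the 2 that rose. Their calls were weak: DESeq2 called 0 genes of this list higher after adjustment and 2 at an unadjusted p under 0.05, limma-voom called 2, and leaving out single libraries left 0 to 2.

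Of 22 glycolytic HIF targets, all tested, 12 rose and 1 fell, with a median log2 fold change of 0.29. That is 54.5% higher and 4.55% lower, against 12.6% and 15.2% of all tested genes. The lactate exporter Slc16a3 had the largest rise (log2 1.42, adjusted p = 2.85e-06), with 5.75% of its exon bases shared with Csnk1d on the opposite strand. Pfkl, a phosphofructokinase, rose 2.08-fold (log2 1.05, adjusted p = 2.77e-06). The glucose transporter Slc2a1 rose from 27.8, 26.1 and 31.8 CPM to 37.2, 36.4 and 44.1 CPM (log2 0.46, adjusted p = 0.00533). Eno2, the neuronal enolase, was the 1 that fell (log2 -1.29, adjusted p = 0.000632).

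Of 32 other HIF targets 23 were tested, 5 rose and 3 fell, and the median was 0.08. With the replicate block 8 rose and 6 fell. Vegfa, the vascular growth factor, rose from 75.8, 81.1 and 83.6 CPM to 162, 148 and 169 CPM (log2 1.00, adjusted p = 5.15e-06). The endothelial markers Cdh5 and Pecam1 rose as well, and their part in the Vegfa level was not tested. Edn1, the vasoconstrictor endothelin, had 10 counts in untreated and 75 in treated libraries. It passed the low-count filter only through the treated wells, so no test is given for it, and without such genes 4 rose and 3 fell of 21. Lox, the collagen cross-linking oxidase, fell from 108 to 26.2 CPM (log2 -2.05, adjusted p = 1.1e-06).

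**Figure D4:**
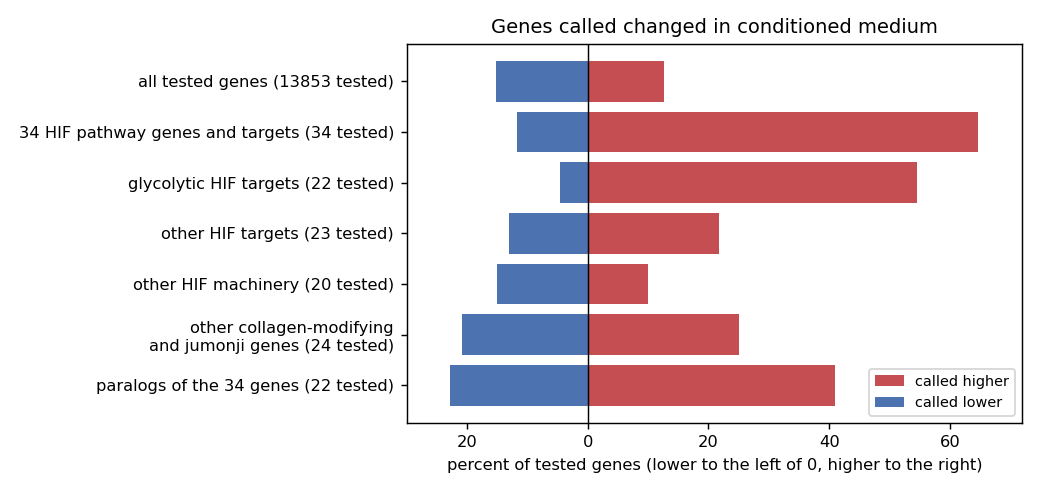
Percent of tested genes called higher (bars to the right of 0) and called lower (bars to the left) in the members and in 5 other gene lists of the pathway, beside all 13853 tested genes. The members have 64.7% higher and 11.8% lower, against 12.6% and 15.2% of all tested genes. The 64.7% includes Adm, which could enter the test only by being higher, and without Adm it is 63.6% of 33. The members and lists were chosen with earlier results of these data known.

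Among 24 tested genes of a list of collagen-modifying enzymes, their partners and jumonji-family dioxygenases, 6 rose and 5 fell (median -0.01). With the replicate block 10 rose and 6 fell, beside 2355 and 2668 of all tested genes. Without the block that is 25% higher and 20.8% lower, against 12.6% and 15.2% of all tested genes. Crtap, a partner of collagen prolyl 3-hydroxylase without such activity of its own, is 1 of the 5 (log2 -0.24, adjusted p = 0.0248) and was singled out after its values were seen. Kdm6b, a histone demethylase known for its induction in activated macrophages, rose 3.23-fold, from 21.5 to 69.4 CPM (log2 1.69, adjusted p = 5.5e-06). Kdm7a rose from 74.6 to 103.9 CPM (log2 0.48, adjusted p = 0.00024). Hr, the demethylase hairless, averaged 0.656 and then 0.178 CPM on 48 and 16 counts. It passed the low-count filter only through the untreated wells, so no test is given for it, and among the 21 genes that passed it in both groups 6 rose and 4 fell.

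Of 22 tested paralogs of the members 9 rose and 5 fell, with a median of 0.01. That is 40.9% higher and 22.7% lower, against 12.6% and 15.2% of all tested genes. Among the 20 that passed the low-count filter in both groups, 8 rose and 4 fell. Besides Selenbp2, the rule named Pdk4, with 13 counts in untreated and 63 in treated libraries, and Ndrg4, with 69 and 30. Pdk4 passed the low-count filter only through the treated wells and Ndrg4 only through the untreated wells, so no test is given for them. Some further paralogs were picked after their values were seen. Bhlhe41, the closest relative of Bhlhe40, fell from 107 to 52.3 CPM (log2 -1.03, adjusted p = 1.15e-06). Pdk2 (log2 0.44, adjusted p = 0.00837) and Pdk3 (log2 0.41, adjusted p = 0.0117) rose as Pdk1 did. Ero1lb, the relative of Ero1l, fell (log2 -0.23, adjusted p = 0.00702).

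The promoter windows of 28 members were in the RefSeq table, Ero1l under its synonym Ero1a. Epas1, Bnip3l, Plod2, Kdm4b, Bhlhe40 and Ndrg1 were not matched there, so of the members that fell only Vhl and Cited2 are covered. The motif, ACGTG or GCGTG on either strand, occurred in 24 of 28 windows (85.7%). It occurred in 43.8% of all 32851 windows of that table and in 62.2% of the first windows of 10060 tested genes. The members' windows were instead those nearest to the gene's 5′ end, so the 2 sets were picked by unlike rules. Many members were listed as known HIF targets, so a high share of the HIF core motif may be built into the list. Base composition differed too: G and C made up 64.3% of the members' windows, 60.5% of those of tested genes and 53.8% of all windows, and its part in the difference was not tested. By call, the motif was in 20 of 21 members that rose, 1 of 2 that fell and 3 of 5 that passed in neither direction. The palindrome CACGTG, which other factors are known to bind too, was in 2 of 21 members that rose, 1 of 2 that fell and 2 of 5 others. It was in 10.2% of tested genes, and 2 or 5 windows are too few to compare with that share. Outside it, the motif was in 20 of 21 members that rose, 0 of 2 that fell and 3 of 5 others. Adm, which could enter the test only by being higher, is among the 20 in both counts. Over tested genes the shares were 61.9% of those called higher, 59.6% of those called lower and 62.8% of the others, so that over the whole table the motif was about as frequent whatever the call.

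Short stretches around the match closest to the start in each window are shown for members with different responses, 25 bases each. Egln3, Egln1, Ankrd37, Ak4, P4ha1 and Adm rose, whereas Egln2 and Plin2 passed in neither direction. Cited2, which fell, and Jmjd6, which passed in neither direction, also held matches and are not shown. Capitals mark that 1 match, which lies inside CACGTG in Egln2 and Plin2. Both also held matches outside CACGTG, and Hif1a and Bnip3, which rose and are printed above, held CACGTG. The stretches lie at chr12:54204089-54204113 for Egln3, chr8:124949308-124949332 for Egln1, chr8:45999842-45999866 for Ankrd37, chr4:101419243-101419267 for Ak4, chr10:59323270-59323294 for P4ha1, chr7:110627593-110627617 for Adm, chr7:27166791-27166815 for Egln2 and chr4:86670048-86670072 for Plin2 on GRCm38.p6.
Egln3: tgcatctcagACGTGagatccaggt
Egln1: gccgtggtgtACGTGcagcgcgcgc
Ankrd37: gtgtttgggtACGTGaggccgcagc
Ak4: ggcggcggtaGCGTGgagccggctc
P4ha1: tgacagagcgCACGTagcgagggct
Adm: caaatctgacCACGCccaccgtccg
Egln2: ggccgctgtcACGTGcccagcgggc
Plin2: ctgggctatcACGTGgctcggaggc
The first motif base lies 229 bases before the start in Egln3, 68 before it in Egln1, 6 in Ankrd37, 36 in Ak4, 16 in P4ha1, 54 in Adm and 3 in both Egln2 and Plin2. Egln2 and Fam162a held the most matches, 6 each, and Bnip3, printed above, held 5. Mxi1, Vhl, Hif1an and Kdm4c held none in this window, which says only that these letters are not in it. A match is a description of the letters and not a binding site.

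**Figure D5:**
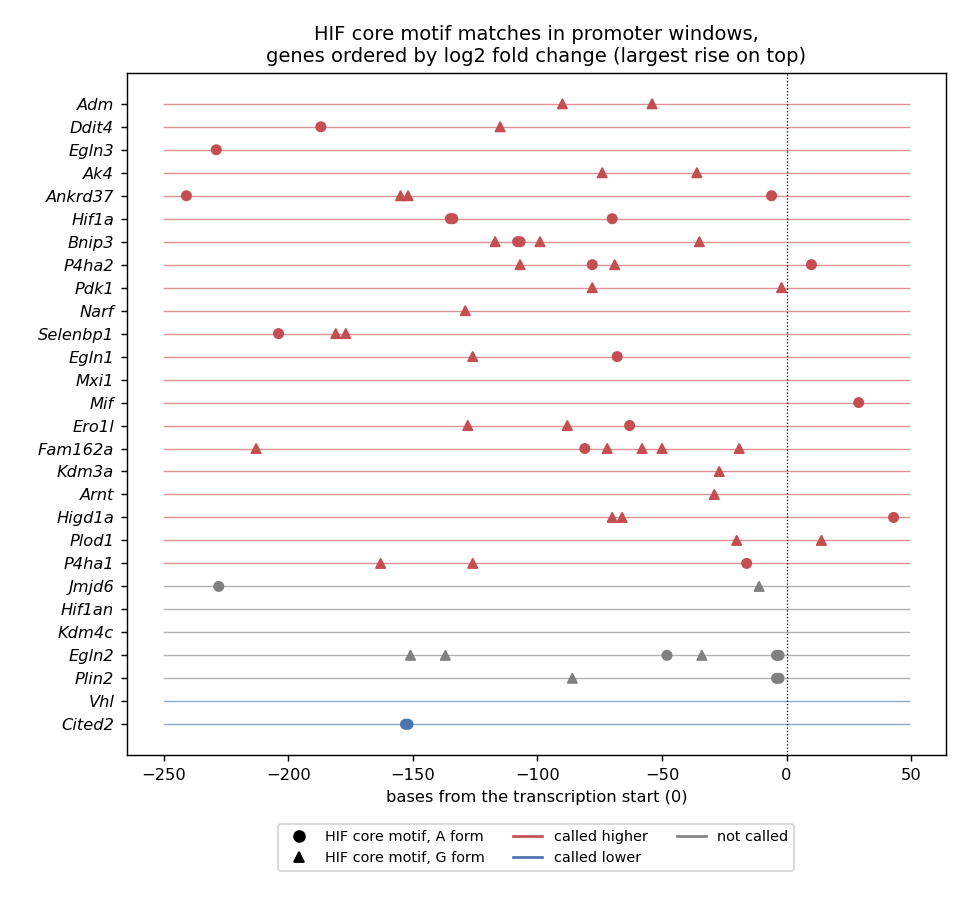
Positions of ACGTG and GCGTG matches (x axis, bases from the transcript start) in the promoter windows of 28 members (rows, ordered by log2 fold change, coloured by call), circles for ACGTG and triangles for GCGTG. Matches occur in 20 of the 21 members that rose, in Cited2, which fell, and in Egln2, Plin2 and Jmjd6, which passed in neither direction. The 20 include Adm, which could enter the test only by being higher.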

How the data were processed

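Messenger RNA of 3 untreated and 3 conditioned-medium wells was sequenced, and wells were grouped by the titles in the labels. The deposited values are whole-number read counts per gene, made with HISAT2 and featureCounts on GRCm38, per the submitters' processing notes. For versions, annotation release and strand setting, nothing is given in the sources used here. Of 55421 Ensembl identifiers 55240 were matched to GENCODE release M21 for symbols. The exon lengths per gene are also deposited values.

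Genes were kept by filterByExpr (at least 0.368 CPM in 3 libraries), scaled by TMM and tested with edgeR 4.0.16 (R 4.3.3) with group as the only term. Benjamini-Hochberg adjustment covered every tested gene, the threshold was 0.05, and adjusted p-values are from this test except where another is named. Changes beyond 1.5-fold were tested with glmTreat. Differences on the log2 scale are conditioned medium minus untreated, with standard errors (SE) from the F statistic. The alternatives tried were DESeq2 1.42.0, limma-voom (limma 3.58.1), RLE scaling, scaling by total counts alone, other low-count filters, the replicate number as a block, and leaving out libraries. The scripts were tested on simulated data.

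The members and lists were chosen with earlier results of these data known. Values per well are given for members past the threshold and for HIF subunits and hydroxylases, and other members are given too. From each other list the 3 largest changes past the threshold are named, with Vegfa, Slc2a1, Arnt2 and Hif3a always. No p is given for a named gene that passed the filter through 1 group alone. Libraries of 1 group differed by more than sampling noise. The labels share replicate numbers between groups without saying what they mark. Deviations from group means over 13853 genes correlated at 0.402, 0.233 and 0.446 between same-numbered wells and at -0.397 to 0.101 between others, so the numbers were taken to pair the wells. The main test has group as its only term and leaves this pairing out. Fits with the replicate number as a block are given as an alternative. Promoter windows are RefSeq's on GRCm38.p6, 1 per member, nearest to the gene's 5′ end. The nearest window need not lie at that end. The Hif1a window, chr12:73907617-73907916, lies inside the gene, which is annotated from 73901375. That of Ankrd37, chr8:45999801-46000100, lies inside a minus-strand gene annotated up to 46005707.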

Additional observations from a re-analysis of the deposited data

How the results depend on the processing

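Across all alternatives 20 to 24 members were called higher and 4 to 5 lower, against 22 and 4, and 7 to 11 passed the test for 1.5-fold, against 9. The median log2 fold change of the members was 0.356 to 0.422. The replicate block called 23 members higher and 5 lower, adding Plod2 and Epas1, and changed no other member's call. Of all tested genes it called 2355 higher and 2668 lower, against 1749 and 2112 without the block. In other lists it moved other HIF targets to 8 higher and 6 lower and the dioxygenases to 10 higher. Without scaling beyond the total count, 2656 of all tested genes were higher and 1710 lower, so 60.8% of calls were higher against 45.3%, while the members' share was 85.7% against 84.6%. In that setting other HIF targets had 1 lower and the dioxygenases 10 higher and 3 lower. For the HIF machinery DESeq2 gave 0 higher, with 2 at an unadjusted p under 0.05, and leaving out both wells numbered 3 gave 1.

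The sign of the Bnip3l difference changed with RLE scaling (-0.00281) and DESeq2 (-0.002845), and that of Plin2 without scaling (0.003305). Leaving out single libraries gave log2 differences of -0.05978 to 0.0673 for Bnip3l and -0.1548 to 0.08435 for Plin2. It also gave 21 to 22 members higher and 4 to 5 lower, 1146 to 1653 of all tested genes higher (1146 without untreated well 2, 1160 without conditioned-medium well 1), and 0 to 2 higher in the HIF machinery (0 without untreated well 2 or 3 or conditioned-medium well 1 or 3, 1 without untreated well 1). For other HIF targets it gave 1 to 3 lower (1 without untreated well 3 or conditioned-medium well 1). For the dioxygenases it gave 3 to 6 higher (3 without untreated well 2 or conditioned-medium well 1) and 3 to 4 lower (3 without conditioned-medium well 1). The cause of these movements was not tested. With a mean of at least 1 CPM, Adm and Ankrd37 were not tested. Depth limits the members near the floor, Adm, Ankrd37, Ak4 and Plod2, whose values rest on few counts.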
